A study of Mus musculus with 8 samples.

Results

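The NADPH oxidase subunits comprised Cybb, Cyba, Ncf1, Ncf4, Nox1, Nox4, Duox1 and Duox2, 8 of the 46603 genes in the count table. They were chosen by gene family membership, and the family was selected on the reading of its lead gene, because Cybb gave more reads in EGFP-positive than in EGFP-negative libraries. The contrast of Cybb between these groups is therefore given as a description with no test. RNA was sequenced from biliary epithelial cells of 4 bigenic mice, named JV602, JV621, JV624 and JV6314, and each mouse gave 1 library of each group. All mice were R26rtTA heterozygous and H2B-EGFP heterozygous, on a mixed C57BL/6 and CBA background, and carried rtTA in the Rosa26 locus and the histone 2B-EGFP fusion under a tetracycline response element. Doxycycline was given to all mice from birth, was stopped at postnatal day 5, and the livers were taken at 8 weeks of age, so that dividing cells could dilute the label in between. Livers were perfused, CD45+ cells were depleted on beads, and EpCAM+CD45- cells were sorted into EGFP+ label-retaining cells (LLRC, 4 libraries) and EGFP- cells (non-LRC, 4 libraries). The transgene limits this model, since H2B-EGFP is also made without doxycycline in hematopoietic cells. The libraries measure bulk RNA, in which fewer cells of a type and less RNA per cell cannot be told apart.

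NADPH oxidases carry electrons from NADPH across a membrane onto oxygen and release superoxide or hydrogen peroxide. In phagocytes the catalytic chain is gp91phox, encoded by Cybb, which is held in the membrane by p22phox, encoded by Cyba, and is switched on when cytosolic proteins, among them p47phox (Ncf1) and p40phox (Ncf4), join it with a Rac GTPase. Nox1 and Nox4 are catalytic chains of other tissues that also pair with p22phox, Nox4 is active without the cytosolic proteins, and Duox1 and Duox2 release peroxide at epithelial surfaces with their own maturation factors.

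The promoters of Cybb and Cyba are shown because both chains form the membrane core of the phagocyte enzyme and because these genes were read in all 8 libraries. Each window holds the 250 bases before the RefSeq start in build GRCm38.p6, read 5′ to 3′ on the strand of the gene. Cybb lies on the minus strand and its window is chrX:9469325-9469574. Cyba lies on the minus strand and its window is chr8:122432941-122433190. Capitals mark every match, searched on both strands, to CCAAT (the CCAAT box), GGGCGG (the GC box), TATAAA (the TATA box) or GAGGAA. The last is a form of the letters bound by the myeloid factor PU.1, and shorter forms such as GGAA were not searched.
Cybb: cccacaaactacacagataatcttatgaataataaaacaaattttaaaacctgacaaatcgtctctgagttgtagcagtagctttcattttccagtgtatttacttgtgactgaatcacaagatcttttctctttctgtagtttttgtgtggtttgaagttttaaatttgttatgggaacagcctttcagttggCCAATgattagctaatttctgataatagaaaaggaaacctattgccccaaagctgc
Cyba: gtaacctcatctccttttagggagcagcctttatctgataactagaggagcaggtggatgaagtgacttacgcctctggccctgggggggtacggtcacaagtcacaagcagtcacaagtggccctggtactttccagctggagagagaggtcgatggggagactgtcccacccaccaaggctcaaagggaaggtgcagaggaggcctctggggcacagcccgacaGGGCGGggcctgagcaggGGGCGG
The Cybb window held 1 CCAAT, which began 56 bases before the start. The Cyba window held 2 GGGCGG, which began 24 and 6 bases before the start. None of these matches overlapped another. Among 32851 promoter windows of the same length, 33.8% held CCAAT, 32.7% held GGGCGG, 23.3% held GAGGAA and 12.4% held TATAAA on either strand. A match is a run of letters and not a shown site, and a missing match says only that these letters are not in this window. Of the 8 members 7 had a window in the RefSeq table, all but Ncf4. The Nox4 window (plus strand) held 1 GGGCGG, the Nox1 window 1 GAGGAA, the Ncf1 window 1 GGGCGG and the Duox2 window 1 CCAAT, although 222 bases of the Duox2 window lie in GENCODE exons, where the other windows have none. The Duox1 window held none of the 4 motifs.

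The 4 LLRC libraries held 7860021 to 9851819 counts and the 4 non-LRC libraries 4670132 to 8056103, with 18488 to 20430 and 14234 to 18930 genes detected. Non-LRC JV621 stood apart with the fewest genes detected (14234). Fold changes without it are therefore also given for Cybb, Nox4, Rac1, Cybc1, Sod1, Sod3, Gpx1, Prdx4 and Pxdn. All 10 cholangiocyte markers, Epcam, Krt19 and Sox9 among them, were read in every library, as the labelled cell type would have. Of 13605 genes tested with the edgeR quasi-likelihood test, 0 (0%) passed an adjusted p of 0.05, and 702 had an unadjusted p under 0.05, 1.6% of those tested being higher and 3.56% lower in LLRC. By other tools the count was 221 with DESeq2 and 0 with limma-voom, each of 13605 genes. It was 127 of 27591 genes with the edgeR exact test, which was run without a filter on low counts. Levels are given as CPM, which are counts scaled to the TMM-adjusted library size, and log2 fold changes are LLRC over non-LRC.

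Of the 8 members, 3 were read at levels that could be tested, and 5 were at or near 0. Cyba was high and alike in both groups, Cybb was at an intermediate level and higher in LLRC within each mouse, and Nox4 was low with lower values in LLRC within each mouse. No member other than Cybb, which was not tested, passed the test across all genes.

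**Figure D1:**
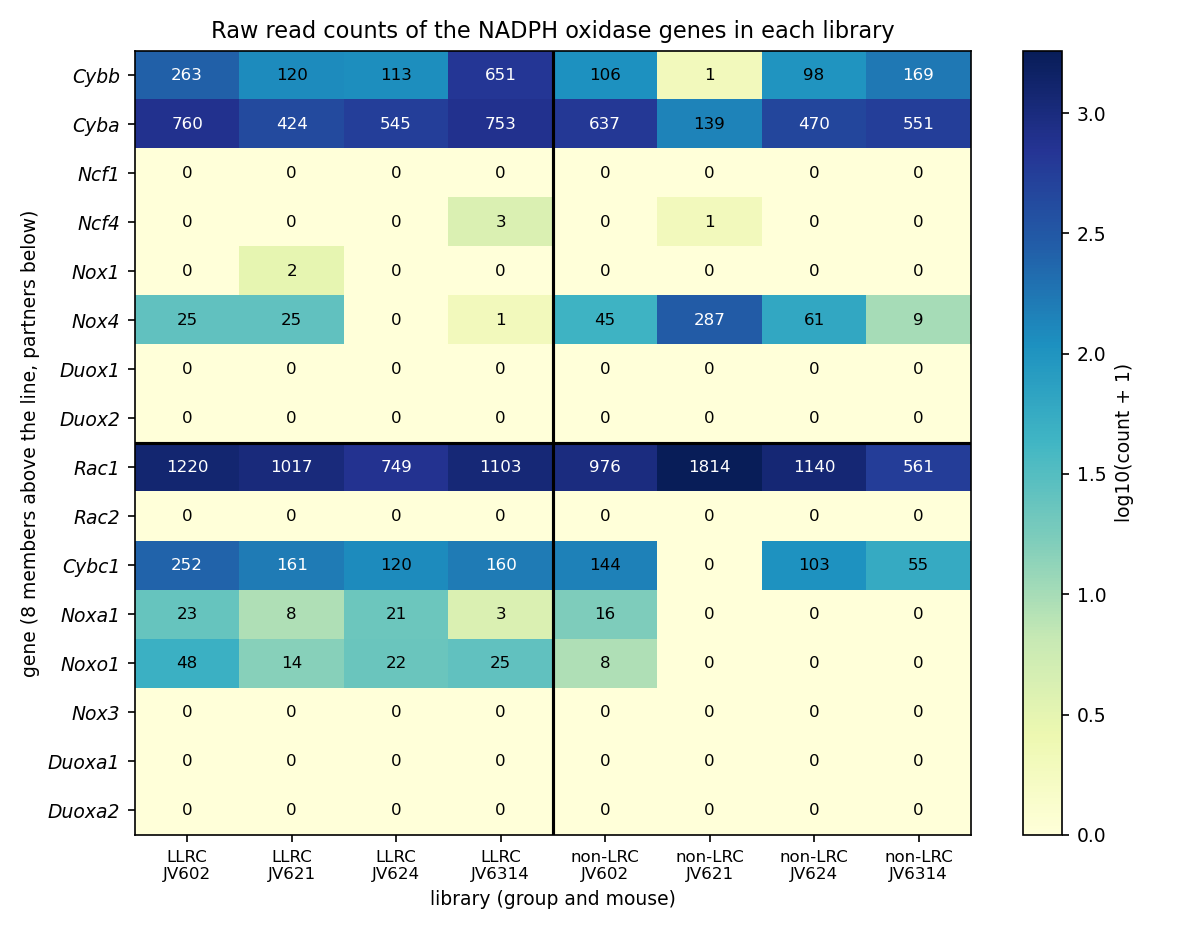
Raw read counts in each library (columns, LLRC left and non-LRC right of the line) for the 8 members (rows above the line) and 8 partner genes (rows below), shaded by log10(count + 1). Cyba and Rac1 were read well in every library, Cybb in all but non-LRC JV621, while Ncf1, Duox1, Duox2, Rac2, Nox3, Duoxa1 and Duoxa2 were at 0 throughout.

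Cybb (ENSMUSG00000015340, chrX:9435252-9487771, minus strand, GRCm38) gave 263, 120, 113 and 651 reads in the LLRC of JV602, JV621, JV624 and JV6314. In the non-LRC of the same mice it gave 106, 1, 98 and 169 reads. On the CPM scale these were 25.5, 14.2, 16.6 and 72.3 in LLRC and 13.3, 0.209, 15.5 and 33.3 in non-LRC. The highest library was LLRC JV6314 and the lowest non-LRC JV621, and the groups overlapped, since non-LRC JV6314 lay above 3 of the LLRC libraries. Mean CPM was 32.1 ± 27.2 (SD, n = 4) in LLRC and 15.6 ± 13.6 (SD, n = 4) in non-LRC, a ratio of means of 2.06. The fitted log2 fold change was 1.05 with a standard error of 1.00, so the difference was about as large as its own error.

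The pairing by mouse showed the direction that led to the choice of Cybb. The ratio of Cybb CPM, LLRC over non-LRC, was 1.92 in JV602, 68.0 in JV621, 1.07 in JV624 and 2.17 in JV6314. All 4 ratios lay above 1, that of JV624 by little, and that of JV621 rested on a single read in its non-LRC library. Of all genes tested, 7.74% were higher in LLRC in 4 of 4 mice and 28.8% in 3 of 4, and since Cybb was chosen for its direction, nothing is read from its being among the former. With the mouse as a replicate block the log2 fold change was 1.52 (SE 0.92). It was 0.28 without LLRC JV6314, 0.65 without non-LRC JV621 and 1.73 without non-LRC JV6314, so single libraries moved its size by more than 1.5 times.

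Cyba (ENSMUSG00000006519, chr8:122424776-122432930, minus strand) encodes the membrane partner without which gp91phox is unstable. It gave 760, 424, 545 and 753 reads in LLRC and 637, 139, 470 and 551 in non-LRC, in the same order of mice. The CPM values were 73.7, 50.1, 80.2 and 83.6 in LLRC and 79.8, 29.0, 74.2 and 108.7 in non-LRC. The groups overlapped fully, with both the lowest and the highest value in non-LRC, and Cyba was higher in LLRC in 2 of 4 mice. Mean CPM was 71.9 ± 15.1 (SD, n = 4) against 72.9 ± 32.9 (SD, n = 4). The log2 fold change was -0.02 (SE 0.40, edgeR quasi-likelihood adjusted p = 0.9999), and it took the other sign under 8 of 22 alternatives, so no direction is given for Cyba.

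Nox4 (ENSMUSG00000030562, chr7:87246096-87398710, plus strand) encodes a catalytic chain that makes mainly hydrogen peroxide. It gave 25, 25, 0 and 1 reads in LLRC and 45, 287, 61 and 9 in non-LRC. The CPM values were 2.42, 2.96, 0 and 0.111 in LLRC and 5.64, 59.9, 9.63 and 1.78 in non-LRC. Non-LRC JV621 stood far above the other libraries, and the groups overlapped because non-LRC JV6314 lay below 2 of the LLRC libraries. Nox4 was lower in LLRC in all 4 mice, with a mean CPM of 1.37 ± 1.54 (SD, n = 4) against 19.2 ± 27.3 (SD, n = 4). Nox4 passed the filter on low counts through its non-LRC libraries, where it is high, so its fold is given as a description. The log2 fold change was -3.78 (SE 1.44), and Nox4 was not called by the edgeR quasi-likelihood test across all genes. The fold change was -2.02 without non-LRC JV621.

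**Figure D2:**
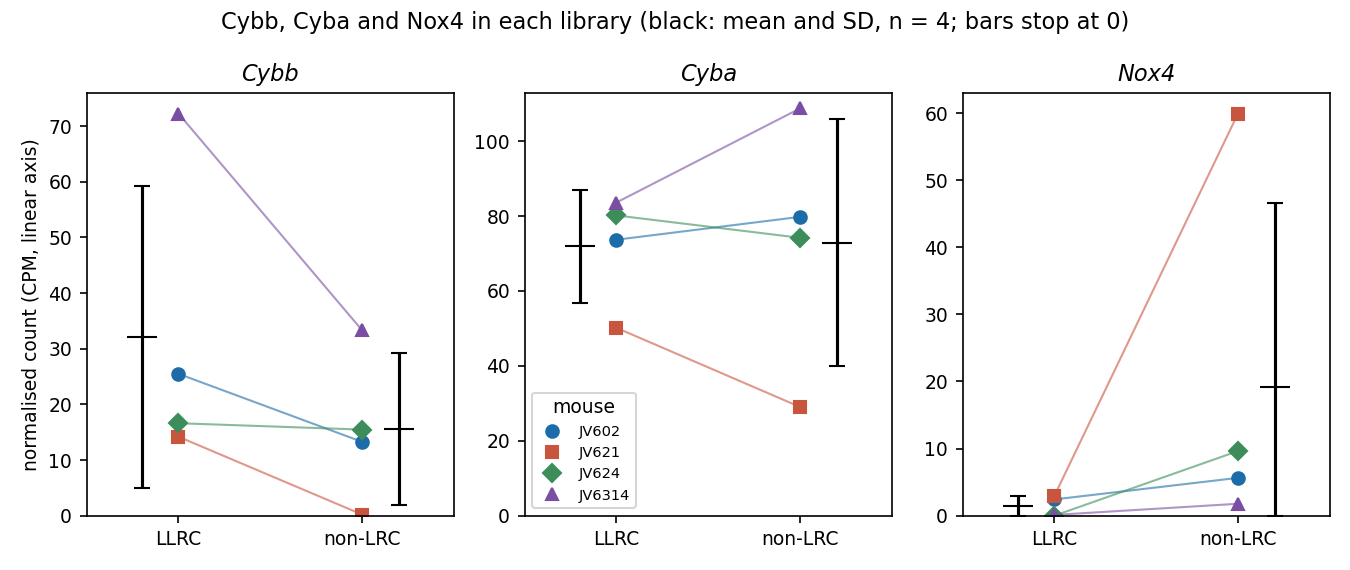
CPM (vertical axes, linear) of Cybb, Cyba and Nox4 in each LLRC and non-LRC library, with lines joining the libraries of a mouse and black bars for the mean and SD (n = 4, cut off at 0). Each Cybb line falls from LLRC to non-LRC (72.3 to 33.3 CPM in JV6314), the Cyba lines cross, and each Nox4 line rises, most in JV621 (2.96 to 59.9 CPM).

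The remaining cytosolic and catalytic members were at the limit of detection. Ncf1 (ENSMUSG00000015950), the organiser p47phox, had 0 reads in all 8 libraries. Duox1 (ENSMUSG00000033268) and Duox2 (ENSMUSG00000068452), neighbours on chromosome 2, also had 0 reads in all 8. A count of 0 allows up to 3 counts, which is 0.291 to 0.626 CPM depending on the library, for counting error only. Ncf4 (ENSMUSG00000071715), which encodes p40phox, had 3 reads in LLRC JV6314, 1 read in non-LRC JV621 and 0 elsewhere. Nox1 (ENSMUSG00000031257), the catalytic chain of colon epithelium, had 2 reads in LLRC JV621 and 0 elsewhere. No group difference could be detected for these 5 members at this depth, and no fold is given. In the gene models 11.1% of Ncf1 exon bases are shared with Gtf2ird2 and 12.1% of Nox1 exon bases with Cstf2 on the opposite strand, while Cybb, Cyba, Nox4, Ncf4, Duox1 and Duox2 share none.

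Levels were compared between members per kilobase of exon. In LLRC the mean CPM per kb was 69.2 ± 14.5 for Cyba, 5.53 ± 4.68 for Cybb and 0.162 ± 0.181 for Nox4 (SD, n = 4 each). In non-LRC it was 70.2 ± 31.7 for Cyba, 2.68 ± 2.35 for Cybb and 2.27 ± 3.22 for Nox4. Cyba was the highest in every library, and Cybb lay above Nox4 in every library but non-LRC JV621. The neighbours Cybb and Nox4 did not overlap in LLRC, nor in the 3 non-LRC libraries other than JV621. Among the 13605 tested genes, mean CPM per kb over all libraries placed Cyba at percentile 95.0, Cybb at 47.0 and Nox4 at 18.5. The ratio of Cyba to Cybb per kb was 16.2, 19.8, 27.0 and 6.47 in LLRC and 33.6, 777, 26.8 and 18.2 in non-LRC, so the membrane partner outnumbered the catalytic chain in every library by this measure.

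The partners of the members followed no common direction. Rac2, the Rac GTPase of leukocytes, had 0 reads in all 8 libraries. Rac1, the Rac GTPase found in most cells, ranged from 110 to 122 CPM in LLRC and from 111 to 379 CPM in non-LRC, with a log2 fold change of -0.75 (SE 0.40) that did not pass and was -0.21 without non-LRC JV621. Of the Rac1 exon bases 51.4% are shared with Daglb on the opposite strand, and the counting did not use strand.

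Cybc1, whose product Eros is needed for gp91phox protein to accumulate, gave 252, 161, 120 and 160 reads in LLRC and 144, 0, 103 and 55 in non-LRC. Like Cybb it was higher in LLRC in 4 of 4 mice and had its lowest count in non-LRC JV621. Its log2 fold change was 0.80 (SE 0.96, edgeR adjusted p = 0.9999), smaller than its standard error, and it was 0.40 without non-LRC JV621.

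The partners of Nox1 gave more reads than the 2 of Nox1 itself. Noxo1, the organiser of the Nox1 complex, gave 48, 14, 22 and 25 reads in LLRC and 8, 0, 0 and 0 in non-LRC. It passed the filter on low counts through its LLRC libraries, where it is high, so its fold and its separation are given as a description. Every LLRC library lay above every non-LRC library, as for 2.15% of all genes tested, while 1.91% lay wholly below. The log2 fold change of Noxo1 was 3.38 (SE 1.18), it was not called, and the 8 reads of JV602 were all that non-LRC held. Without that library the fitted value was 7.49, which is set against 0 reads and so depends on the prior count. Of its exon bases 70.4% are shared with Tbl3 on the opposite strand, whose level was 10.7 to 18.7 CPM in LLRC and 11.1 to 20.5 CPM in non-LRC and thus overlapped between groups. Noxa1, the activator of the same complex, gave 23, 8, 21 and 3 reads in LLRC and 16, 0, 0 and 0 in non-LRC and was too low to test. Nox3, Duoxa1 and Duoxa2 had 0 reads in all 8 libraries. Hvcn1, a proton channel that balances the charge moved by the oxidase, had 3 reads in 1 LLRC library and 1, 6 and 14 in 3 non-LRC libraries, and 44.2% of its exon bases are shared with Tctn1. Rap1a, a small GTPase that copurifies with the phagocyte enzyme, had a log2 fold change of 0.25 (SE 0.35), and 0.06 without non-LRC JV602. Poldip2, a partner of Nox4, had one of -0.13 (SE 0.55), which took the other sign in the paired fit.

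**Figure D3:**
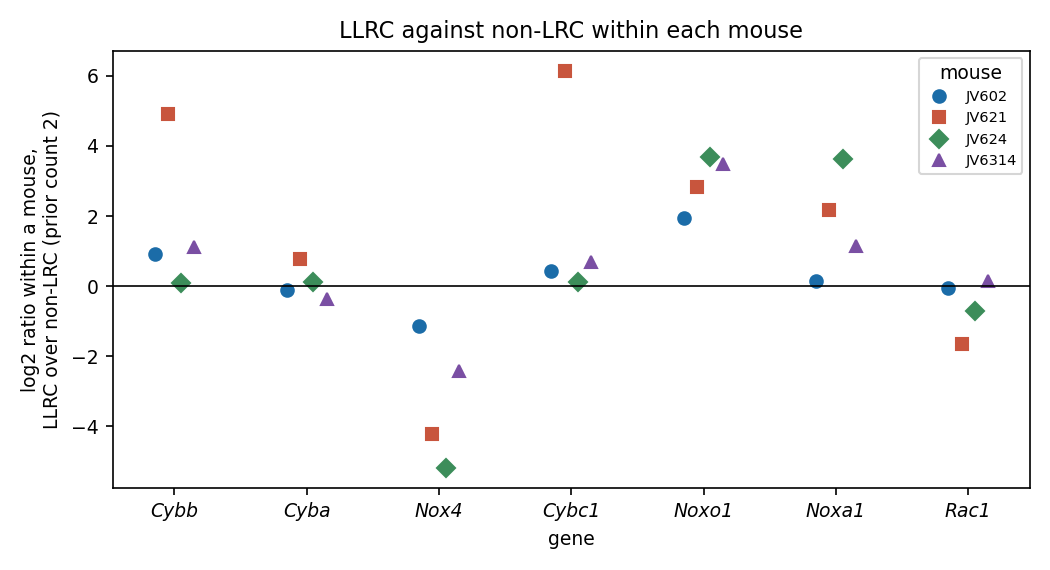
Log2 ratio of LLRC over non-LRC within each mouse (vertical axis, prior count of 2) for Cybb, Cyba, Nox4 and 4 partners, 1 symbol per mouse. All 4 mice lie above 0 for Cybb, Cybc1, Noxo1 and Noxa1 and below 0 for Nox4, and JV621 gives the highest value for Cybb and Cybc1.

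Of 37 other genes of the pathway 23 passed the filter on low counts, and 0 were called in either direction, under the quasi-likelihood test or any alternative. Their median log2 fold change was -0.22, beside -0.01 over all genes tested, with 7 above and 16 below 0. Of all genes tested 48.9% were above 0. At an unadjusted p under 0.05 in the quasi-likelihood test, 1 was lower (Sod3). Noxo1 also lay under that value, on the higher side, but it passed the filter through LLRC and is given as a description. All 13 genes of superoxide and peroxide removal were tested, with 2 above and 11 below 0 and a median of -0.24. Among them Sod3, the extracellular superoxide dismutase, had 80.8, 39.9, 40.3 and 36.3 CPM in LLRC and 95.4, 50.1, 154 and 152 CPM in non-LRC. Sod3 was lower in LLRC in all 4 mice with overlapping groups (log2 fold change -1.19, SE 0.43, edgeR adjusted p = 0.792). Its fold change was -1.43 without non-LRC JV621 and -1.01 without non-LRC JV624. Gpx1, a cytosolic glutathione peroxidase, had a log2 fold change of -1.04 (SE 0.54), which was -0.24 without non-LRC JV624 and -1.31 without non-LRC JV621. The cytosolic dismutase Sod1 had one of -0.53 (SE 0.38), which was -0.25 without non-LRC JV6314 and -0.76 without non-LRC JV621. The highest of this list was Prdx4, the peroxiredoxin of the endoplasmic reticulum, at 0.44 (SE 0.40), and at 0.17 without non-LRC JV621. The others lay between -0.38 (Gpx3) and 0.09 (Sod2, the mitochondrial dismutase), with Cat, Gpx4, Prdx1, Prdx2, Prdx3, Prdx5 and Prdx6 in between, and each was within 1 standard error of 0.

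Of 4 haem peroxidases, which use hydrogen peroxide, Mpo and Lpo had 0 reads in all 8 libraries and Epx at most 1 read in a library. Pxdn, which crosslinks collagen IV of basement membranes, was lower in LLRC in all 4 mice (log2 fold change -1.43, SE 0.64, edgeR adjusted p = 0.962), with overlapping groups. It was -0.55 without non-LRC JV621 and also -0.55 with limma-voom. Of the 9 kinases and exchange factors upstream of the oxidase 4 were tested, and none passed. The protein kinase C genes Prkca and Prkcd had log2 fold changes of 0.77 (SE 0.62) and 0.13 (SE 0.83), and the Rac exchange factors Vav2 and Vav3 had -0.63 (SE 0.78) and -1.28 (SE 1.64). Single libraries moved these values, to 1.79 for Prkca without non-LRC JV602, to -1.68 for Vav2 without LLRC JV602 and to 1.94, the other sign, for Vav3 without non-LRC JV6314. Prkcb, Pik3cg and Tiam1 reached at least 10 reads in some library but were too low to test, with at most 2.17, 2.00 and 2.68 CPM, and Vav1 and Prex1 stayed under 10 reads.

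**Figure D4:**
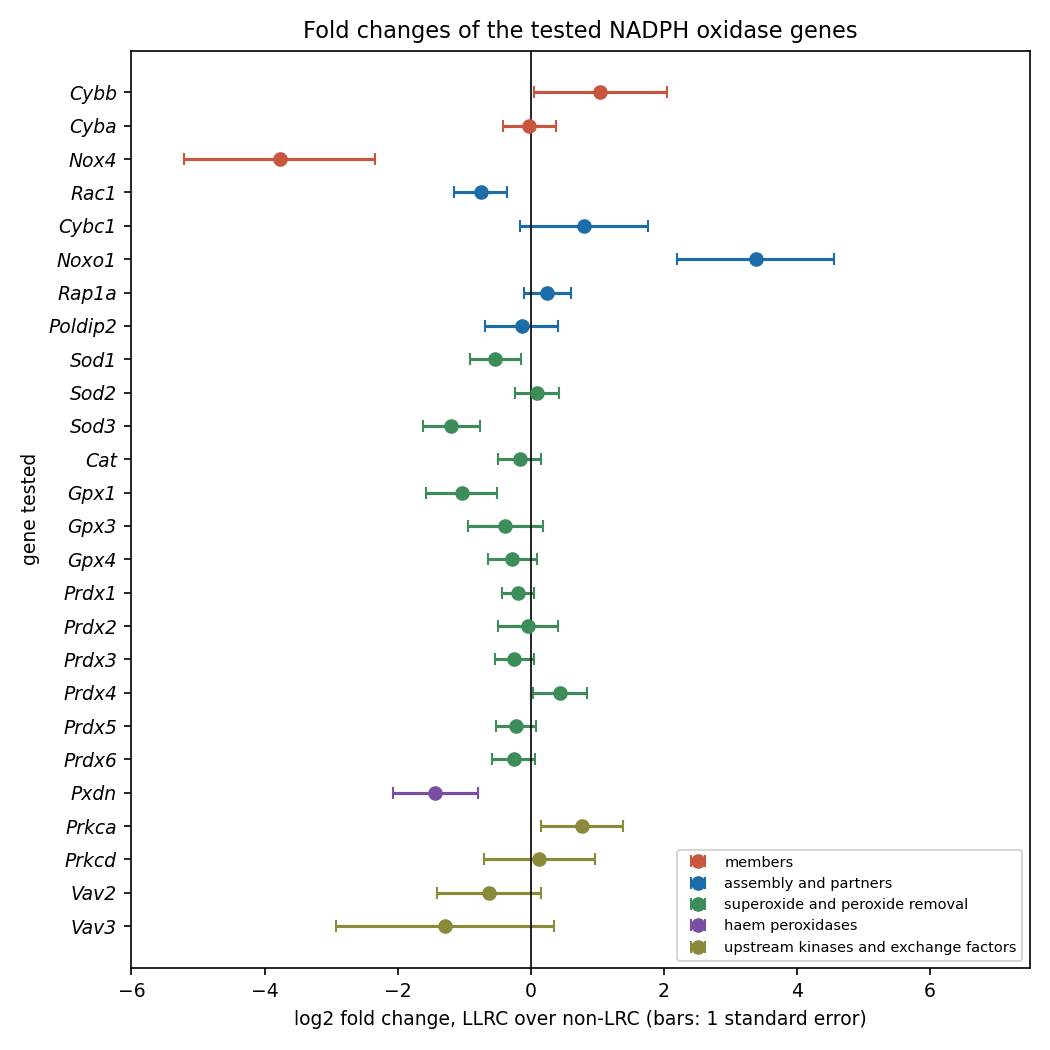
Log2 fold changes, LLRC over non-LRC (horizontal axis), with bars of 1 standard error for the 3 members and 23 other pathway genes that passed the filter, coloured by list. Nox4 lies farthest to the left (-3.78) and Noxo1 farthest to the right (3.38), Cybb (1.05) was chosen for its direction, and no gene tested was called.

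Since Cybb is a gene of phagocytes and B cells, leukocyte markers are given beside it. Ptprc, which encodes the CD45 removed by the sort, had 0.485, 4.02, 2.06 and 6.55 CPM in LLRC and 0, 0, 0 and 1.38 CPM in non-LRC. It was higher in LLRC in 4 of 4 mice, as Cybb was, and LLRC JV6314 was the highest library for both genes. The sum of the 8 leukocyte markers was 2.81 to 14.1 CPM in LLRC and 7.89 to 44.4 CPM in non-LRC. Of this Arhgdib alone held 2.33 to 7.55 and 7.73 to 42.6 CPM. Arhgdib (log2 fold change -2.33) was called lower in LLRC by DESeq2, which called 172 of 13605 genes lower. It was not called by the quasi-likelihood test, limma-voom or the edgeR exact test. The 6 markers other than Ptprc and Arhgdib, set apart after these values were seen, summed to 0, 1.42, 0 and 0 CPM in LLRC and 0.125, 2.30, 1.74 and 0.197 CPM in non-LRC, from 12 reads in LLRC JV621 and at most 11 reads in a non-LRC library. Of these 8 markers 1 (Rac2) was at 0 in all libraries, Coro1a, Laptm5 and Cd52 were at 0 in all 4 LLRC libraries, and Cd53 was at 0 in all 4 non-LRC libraries with 11 reads in LLRC JV621.

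Macrophage markers overlapped between the groups. The sum of 10 macrophage and Kupffer cell markers was 10.1 to 30.5 CPM in LLRC and 16.1 to 45.9 CPM in non-LRC, nearly all of it Csf1r in LLRC. Adgre1, Clec4f, C1qa, C1qb, C1qc and Marco were at 0 in all 4 LLRC libraries, where Cybb had 14.2 to 72.3 CPM. The monocyte and neutrophil sum was 3.10 to 94.0 CPM in LLRC and 4.63 to 584 CPM in non-LRC. Its high values came from S100a8 in JV621, at 85.9 CPM in LLRC and 570 CPM in non-LRC, which were the libraries with the lowest Cybb of their groups. B cell markers summed to at most 0.097 CPM in LLRC and 1.42 in non-LRC, and T and NK cell markers to 0 and at most 1.38 CPM. The part of leukocyte RNA in the Cybb difference was not tested.

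**Figure D5:**
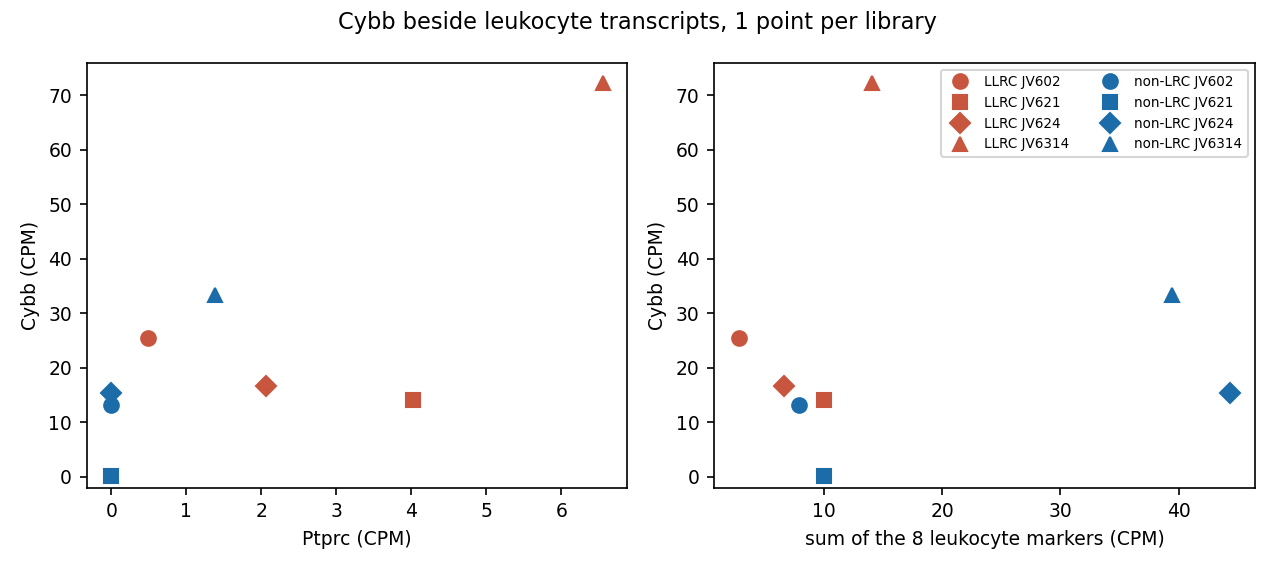
Cybb CPM (vertical axes) against Ptprc CPM (left) and the summed CPM of the 8 leukocyte markers (right), 1 point per library, coloured by group and shaped by mouse. LLRC JV6314 is highest in Cybb (72.3) and Ptprc (6.55), while in the summed list non-LRC JV624 and JV6314 lie farthest to the right (44.4 and 39.5).

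Endothelial and stellate cells are known to express Nox4, so their markers are given beside it. The 6 endothelial markers summed to 14.8 to 29.8 CPM in LLRC and 96.4 to 321 CPM in non-LRC, and the 5 of them tested had a median log2 fold change of -3.69. None of them was called by the edgeR quasi-likelihood test or limma-voom, 5 were called lower in LLRC by DESeq2 and 4 (all but Stab2) by the edgeR exact test without a filter. Over all genes, DESeq2 called 172 of 13605 lower and that exact test 96 of 27591. The endothelial sum was highest in non-LRC JV6314 (321 CPM) and next in non-LRC JV621 (318 CPM), where Nox4 had its lowest and highest non-LRC values. The 7 stellate cell and fibroblast markers summed to 260 to 856 CPM in LLRC and 668 to 2567 CPM in non-LRC, with a median of -2.19 over the 4 tested. Lrat, of retinoid-storing stellate cells, was called lower by DESeq2 and the exact test, and none by the quasi-likelihood test or limma-voom, while Reln had a log2 fold change of 0.32. Hepatocyte markers summed to 2528 to 3009 CPM in LLRC and 1953 to 4966 CPM in non-LRC, and the 6 tested had a median of -1.30, with Cyp2e1 called lower by DESeq2 and none by the other tools. The part of these cells in the Nox4 difference was not tested.

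The genes whose log2 CPM followed that of Cybb most closely over the 8 libraries were Rnaset2a (Pearson r = 0.989), Dynlt1f (0.985), Krcc1 (0.981), Tmem62 (0.981) and Rbl1 (0.980), out of 13604 compared. Rnaset2a and Dynlt1f have near-identical copies in the genome, so their counts are uncertain. Without non-LRC JV621, the library with 1 Cybb read, r fell to 0.983, 0.892, 0.865, 0.858 and 0.864, and none of these 5 was among the 5 closest by rank correlation. Against Cybb, r was 0.883 for Cyba, 0.905 for Cybc1 and -0.794 for Nox4 over 8 libraries, and 0.48, -0.18 and -0.54 over the 7 without non-LRC JV621. These values describe libraries that share mice and sorts, and the likeness of Cyba and Cybc1 to Cybb rested on that library.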

How the data were processed

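RNA of 4 LLRC and 4 non-LRC libraries was purified with PicoPure and sequenced. The authors deposited raw counts per Ensembl gene for 8 libraries, made with HTSeq (union mode, exons, no strand, GRCm38). The aligner is not given in the sources used here. The submitters' processing notes name edgeR 3.2.4. Their own comparison table holds fold changes, average log2 abundance, p-values and false discovery rates and was not used. Groups and mice came from the labels, and 0 columns of per-sample values were left unmapped.

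The members and lists were chosen with earlier results of these data known. Symbols, places and exon lengths came from GENCODE M21 (GRCm38), which matched 46091 of 46603 identifiers, and promoters from RefSeq (GRCm38.p6). Counts were filtered with filterByExpr, scaled by TMM and tested with the edgeR 4.0.16 quasi-likelihood test in R 4.3.3, with group as the sole term, as the study states no block. Benjamini-Hochberg adjustment ran over all 13605 genes, with a threshold of 0.05. Scripts were tested on simulated counts. The text names all members, other oxidase genes with at least 10 counts in some library, the 5 genes most like Cybb (log2 CPM, prior count 2) and defining markers. Genes below that count (Epx, Vav1, Prex1 and those at 0) are also named, and Tbl3 because a result turns on it. Some genes of the lists are not reported here.

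Alternatives were DESeq2 1.42.0, the edgeR exact test, limma-voom 3.58.1, other scalings and filters, thinned counts, the mouse as a replicate block, and each library or mouse left out. Pairing comes from the labels, as each animal gave 1 library of each group. Once group means were taken out, the correlation within a pair was 0.096 (JV602), 0.074 (JV621), 0.003 (JV624) and 0.171 (JV6314). Totals of 4670132 to 9851819 counts set the precision, and PCR reads without molecular identifiers are not independent molecules.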

Additional observations from a re-analysis of the deposited data

Results flagged for a closer look

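In 12 of 62 groups of 4 libraries, 1 library lay so far from the other 3 that its gap to the nearest passed Dixon's 95% critical share of the group's range. Chance gives this in about 1 in 20 groups of normally distributed values. The rule was applied to CPM on a linear scale, which need not be normally distributed, so that rate is not an expectation here. In 6 of these 12 the other 3 libraries had 0 reads, where any count passes. Among the members this was Nox4 in non-LRC JV621, at 59.9 CPM where the other non-LRC libraries had 1.78 to 9.63. The same library was the high one for Pxdn (35.5 CPM against 5.89 to 9.47). Non-LRC JV602 was the high one for Noxa1 (2.00 CPM), Noxo1 (1.00 CPM) and Pik3cg (2.00 CPM), each with 0 reads in the other 3 non-LRC libraries, and for Prkca (40.0 CPM against 7.70 to 8.05). Other non-LRC libraries stood apart for Gpx4 (62.0 CPM in JV624 against 25.9 to 29.4) and Vav3 (22.1 CPM in JV6314 against 0 to 1.74). Among LLRC libraries, JV602 was the high one for Sod3 (80.8 CPM against 36.3 to 40.3) and for Hvcn1 (0.291 CPM), JV624 for Prkcb (2.06 CPM) and JV621 for Pik3cg (1.89 CPM), the last 3 with 0 reads in the other LLRC libraries.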

How the results depend on the processing

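The Cybb log2 fold change ran from 0.28 to 1.73 over the 22 alternatives, the same range with a library or mouse left out. Cybb was chosen for its direction, so nothing is read from its sign. The log2 fold change of Nox4 ran from -4.52 to -2.02. No member other than Cybb, which was not tested, was called under any alternative. The count of genes called was 221 with DESeq2, and 0 to 6 with a library or mouse left out (6 without non-LRC JV602). Of the 27591 genes kept without a filter, 11 were called by the quasi-likelihood test and 127 by the edgeR exact test. Rank correlation kept 0 of the 5 genes most like Cybb. Other fold changes took the other sign under some alternatives, most of them small and Vav3 (-1.28) the exception, and the cause was not tested. Cyba was 0.0226 by that exact test, 0.0228 without a filter, 0.0061 with at least 1 CPM in 2 libraries, and -0.27 to 0.24 with libraries or mice left out. Prdx2 was 0.0021 by that exact test and 0.0021 without a filter, and -0.33 to 0.40 with libraries left out. With limma-voom Sod2 was -0.0665, Cat 0.0231 and Vav3 0.72, and with library size alone Sod2 was -0.0707. With libraries or mice left out Poldip2 ran from -0.41 to 0.20, Sod2 from -0.10 to 0.27, Gpx4 from -0.45 to 0.19, Prdx5 from -0.36 to 0.0069, Prdx6 from -0.53 to 0.14, Prkcd from -0.27 to 0.57 and Vav3 from -1.79 to 1.94. In the paired fit with the mouse as a replicate block 0 genes were called (569 at an unadjusted p under 0.05), Cyba was 0.10, Poldip2 0.13, Prdx2 0.18 and Vav3 0.35, and the block changed no call. At these depths, 5 of the 8 members were too low for a group difference to be seen.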
